A study of Homo sapiens with 24 samples.

Results

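Interferon-stimulated genes are the genes a cell switches on when interferon, a cytokine released in response to viruses, binds its receptor at the cell surface. The receptor activates JAK kinases, which phosphorylate STAT proteins, and a complex of STAT proteins with IRF9 binds the interferon-stimulated response element (ISRE) in the promoters of these genes. Their products sense viral RNA, stop its translation, degrade it, attach the ubiquitin-like protein ISG15 to other proteins or call in T cells. A list of 43 such genes, chosen by name and with earlier results of these data known, was followed in 2 prostate cancer cell lines. Each gene was represented by 1 probe set, the one with the highest mean over all 24 arrays, and 42 of the 43 had a probe set naming that gene alone, among 19775 genes in all. STAT2, which partners IRF9, was not analysed here.

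VCaP cells, which carry a TMPRSS2-ERG fusion, were transfected with an siRNA against ERG (siERG) or a control siRNA (siControl), and LNCaP cells, which carry a rearranged ETV1, with an shRNA against ETV1 (shETV1) or a control shRNA (shControl). Both targets encode ETS-family transcription factors. After 24 h of RNA interference every culture, controls included, spent 2 days without hormone and then 16 h with 10 nM dihydrotestosterone (DHT), the potent ligand of the androgen receptor, or with its ethanol vehicle (EtOH). The 8 groups were thus siERG and siControl VCaP cells with DHT, siERG and siControl VCaP cells with EtOH, shETV1 and shControl LNCaP cells with DHT, and shETV1 and shControl LNCaP cells with EtOH, with 3 biological replicates (A, B and C) of each. Each knockdown was made in 1 cell line, the labels name 1 reagent per target, and they mention no interferon treatment.

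Values are array intensities as deposited, and changes are log2 fold changes of intensity + 16 with their standard errors, which understates the change of dim genes. A change was called when limma's moderated test, adjusted by the Benjamini-Hochberg method over all genes tested in a line, gave an adjusted p under 0.05. Testing in a line required a signal over the array's median intensity on 3 or more of its 12 arrays. The median intensity was 47.6 to 53.2 on the VCaP arrays and 42.7 to 44.8 on the LNCaP arrays, and 6 to 13 values per VCaP array but 605 to 698 per LNCaP array were exactly 1, so lines were set against each other only through their changes. The number of arrays limits the precision. ERG read 569.7, 592 and 567 in siERG cells with EtOH against 1029, 1115 and 950.2 in siControl cells (change -0.82 ± 0.06), and ETV1 read 769, 714 and 752 in shETV1 cells with EtOH against 1215, 1201 and 1029.8 in shControl cells (change -0.61 ± 0.07); neither pair of groups overlapped, and both genes also fell in the knockdown cells with DHT present (-1.09 and -0.62). Of 8 luminal prostate markers measured, 8 lay above the median on all VCaP arrays and 6 on all LNCaP arrays, and 0 of 3 basal markers did in either line. Of 8 leukocyte markers 1, LYZ, did so in VCaP and 0 in LNCaP. In both lines 1 of 4 markers of plasmacytoid dendritic cells (TCF4), 1 of 6 of fibroblasts (COL1A1) and 0 of 4 of endothelium did. Probe intensities cannot tell fewer cells of a type from less RNA per cell.

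The promoters are shown first, because the ISRE is the feature that defines how these genes answer interferon. In the RefSeq windows on GRCh38.p14, which run from 250 bases before to 50 bases after an annotated start, the ISRE was searched on both strands as GAAA, any 2 bases, GAAA. They were found in 25 of the 35 listed genes with a window (71.4%), against 3.57% of all 35116 windows; several genes have more than 1 window, which gives them more than 1 chance. The interferon-gamma element, GAS (TTCNNNGAA), was found in 12 of the 35 genes (34.3%) against 7.66% of all windows. The androgen response element, searched as GNACA, any 3 bases, TGTNC, was found in 0 of the 35 genes against 0.39% of all windows. With a motif this rare, a count of 0 in 35 genes says nothing about androgen control of these genes. In the 6 promoters below, capitals mark ISRE matches. IFIT1 lies on the plus strand (chr10:89392373-89392672), as do ISG15 (chr1:1013247-1013546), HERC5 (chr4:88456869-88457168) and OAS1 (chr12:112906712-112907011), while CXCL10 (chr4:76023448-76023747) and GBP3 (chr1:89022817-89023116) lie on the minus strand.
IFIT1: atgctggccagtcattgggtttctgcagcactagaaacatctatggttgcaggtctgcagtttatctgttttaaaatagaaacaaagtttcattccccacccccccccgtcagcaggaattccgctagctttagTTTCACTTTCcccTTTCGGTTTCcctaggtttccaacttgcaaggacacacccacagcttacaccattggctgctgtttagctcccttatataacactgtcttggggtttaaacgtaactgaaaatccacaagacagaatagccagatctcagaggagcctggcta
ISG15: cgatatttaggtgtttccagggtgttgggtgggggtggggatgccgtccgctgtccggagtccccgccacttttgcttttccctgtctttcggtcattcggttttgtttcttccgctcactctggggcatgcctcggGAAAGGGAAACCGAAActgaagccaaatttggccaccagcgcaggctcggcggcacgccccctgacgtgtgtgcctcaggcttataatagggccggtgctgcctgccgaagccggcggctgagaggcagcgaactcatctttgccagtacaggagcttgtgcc
HERC5: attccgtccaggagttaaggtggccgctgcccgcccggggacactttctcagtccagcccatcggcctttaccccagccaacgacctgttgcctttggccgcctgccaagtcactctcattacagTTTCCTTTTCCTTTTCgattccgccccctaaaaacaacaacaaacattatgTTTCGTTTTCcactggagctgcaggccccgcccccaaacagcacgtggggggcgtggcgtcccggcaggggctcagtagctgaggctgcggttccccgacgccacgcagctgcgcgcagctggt
OAS1: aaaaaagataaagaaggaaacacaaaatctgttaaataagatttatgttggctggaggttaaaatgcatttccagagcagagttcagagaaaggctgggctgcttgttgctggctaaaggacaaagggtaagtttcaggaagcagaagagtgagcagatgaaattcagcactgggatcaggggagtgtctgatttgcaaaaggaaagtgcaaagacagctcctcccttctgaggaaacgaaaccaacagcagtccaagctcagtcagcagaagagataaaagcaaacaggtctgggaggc
CXCL10: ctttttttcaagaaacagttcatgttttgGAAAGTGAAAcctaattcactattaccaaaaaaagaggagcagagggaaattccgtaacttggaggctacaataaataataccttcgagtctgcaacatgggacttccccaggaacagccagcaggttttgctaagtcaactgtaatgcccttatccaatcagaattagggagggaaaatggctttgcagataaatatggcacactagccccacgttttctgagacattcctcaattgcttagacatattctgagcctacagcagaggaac
GBP3: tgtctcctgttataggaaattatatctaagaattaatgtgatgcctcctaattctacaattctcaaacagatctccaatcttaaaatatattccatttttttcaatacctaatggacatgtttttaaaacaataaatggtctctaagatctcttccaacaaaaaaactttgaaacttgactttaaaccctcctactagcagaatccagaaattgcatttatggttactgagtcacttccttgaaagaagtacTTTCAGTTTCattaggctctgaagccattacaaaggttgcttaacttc
IFIT1 and ISG15, shown because their arrays differed most or were brightest, hold 2 matches each; those of IFIT1 begin 116 and 103 bases before the start, and those of ISG15 begin 113 and 107 bases before it and overlap. HERC5, which rose with DHT in LNCaP, holds 3 matches, of which 2 overlap. CXCL10, which rose with DHT in VCaP, holds 1 match 221 bases before the start, and GBP3, which fell in 7 of the 8 comparisons of groups within a line, holds 1 just after it. OAS1 is shown as a gene without these letters, which says nothing about whether the complex binds there.

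Without added interferon, most of the 42 genes gave a measurable signal, and ISG15, the ubiquitin-like modifier, had the highest median of the 42 in both lines. ISG15 ranged from 1056 to 2871 in VCaP and from 1987 to 2863 in LNCaP. Of the 42 genes 36 were tested in VCaP, 34 in LNCaP and 33 in both. DTX3L and PARP9, partners in a ubiquitin ligase complex, had medians of 1145 and 624 in VCaP and of 1183 and 631 in LNCaP, and TRIM14, a mitochondrial adaptor of antiviral signalling, had 925 and 499.7. IRF7, the transcription factor that amplifies interferon production, had medians of 553 in VCaP and 604 in LNCaP. The other 5, IFI27, IFI44L, EPSTI1, GBP1 and BST2, were not tested in either line, and on every array of both lines they lay under the array's median intensity. OAS1, RSAD2 and CXCL11 were tested only in VCaP, and XAF1 only in LNCaP. Several others passed on part of the arrays of a line and may have passed through the group where they are high, among them MX1 (3 of 12 arrays in VCaP and 6 in LNCaP), RSAD2 (4 in VCaP), and IRF1 and CXCL10 (5 each in LNCaP).

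In VCaP the interferon-stimulated genes moved together from array to array inside a group of replicates, by more than most genes did. IFIT1, which binds viral RNA and blocks its translation, read 51.5, 44.1 and 89.7 in siERG cells with EtOH and 28.0, 216 and 83.7 in siControl cells with EtOH, for arrays A, B and C. In siControl cells array B was thus 7.70 times array A, and the siERG arrays lay inside the range of the siControl arrays. ISG15 read 1056, 1174 and 2297 in siERG cells with EtOH and 1289.9, 2382 and 1630.1 in siControl cells with EtOH. With DHT, ISG15 read 1630.5, 2231 and 1615 in siERG cells and 2078, 1874 and 2871 in siControl cells. The high array was C in siERG and B in siControl cells with EtOH, and B in siERG and C in siControl cells with DHT, and the groups overlapped.

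Most other members followed the same arrays. OAS1, an enzyme that makes the 2-5A signal for RNA decay, read 106, 118 and 172 in siERG cells with EtOH and 137, 260.2 and 168 in siControl cells with EtOH, again highest on C in siERG and on B in siControl cells. MX1, a dynamin-like GTPase that traps viral ribonucleoproteins, read 16.9, 49.2 and 29.3 in siERG cells with DHT and 46.4, 39.6 and 65.1 in siControl cells with DHT. RSAD2 (viperin), which makes a chain-terminating nucleotide, read 22.5, 19.8 and 38.9 in siERG cells with EtOH and 24.3, 93.4 and 53.2 in siControl cells with EtOH. Over the 36 members, array B was the highest of 3 for 33 in siControl cells with EtOH (33% of all 12840 genes were highest on that array). Array C was highest for 29 of 36 in siERG cells with EtOH (34.1% of all genes), array B for 29 of 36 in siERG cells with DHT (33.5%) and array C for 23 of 36 in siControl cells with DHT (42.2%). The lowest array was A for 27 members in siERG (75%, against 33.8% of all genes) and for 24 in siControl cells with EtOH (66.7% against 21.7%). With DHT it was C for 21 in siERG cells (58.3% against 57.5%) and B for 28 in siControl cells (77.8% against 43.6%).

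**Figure D1:**
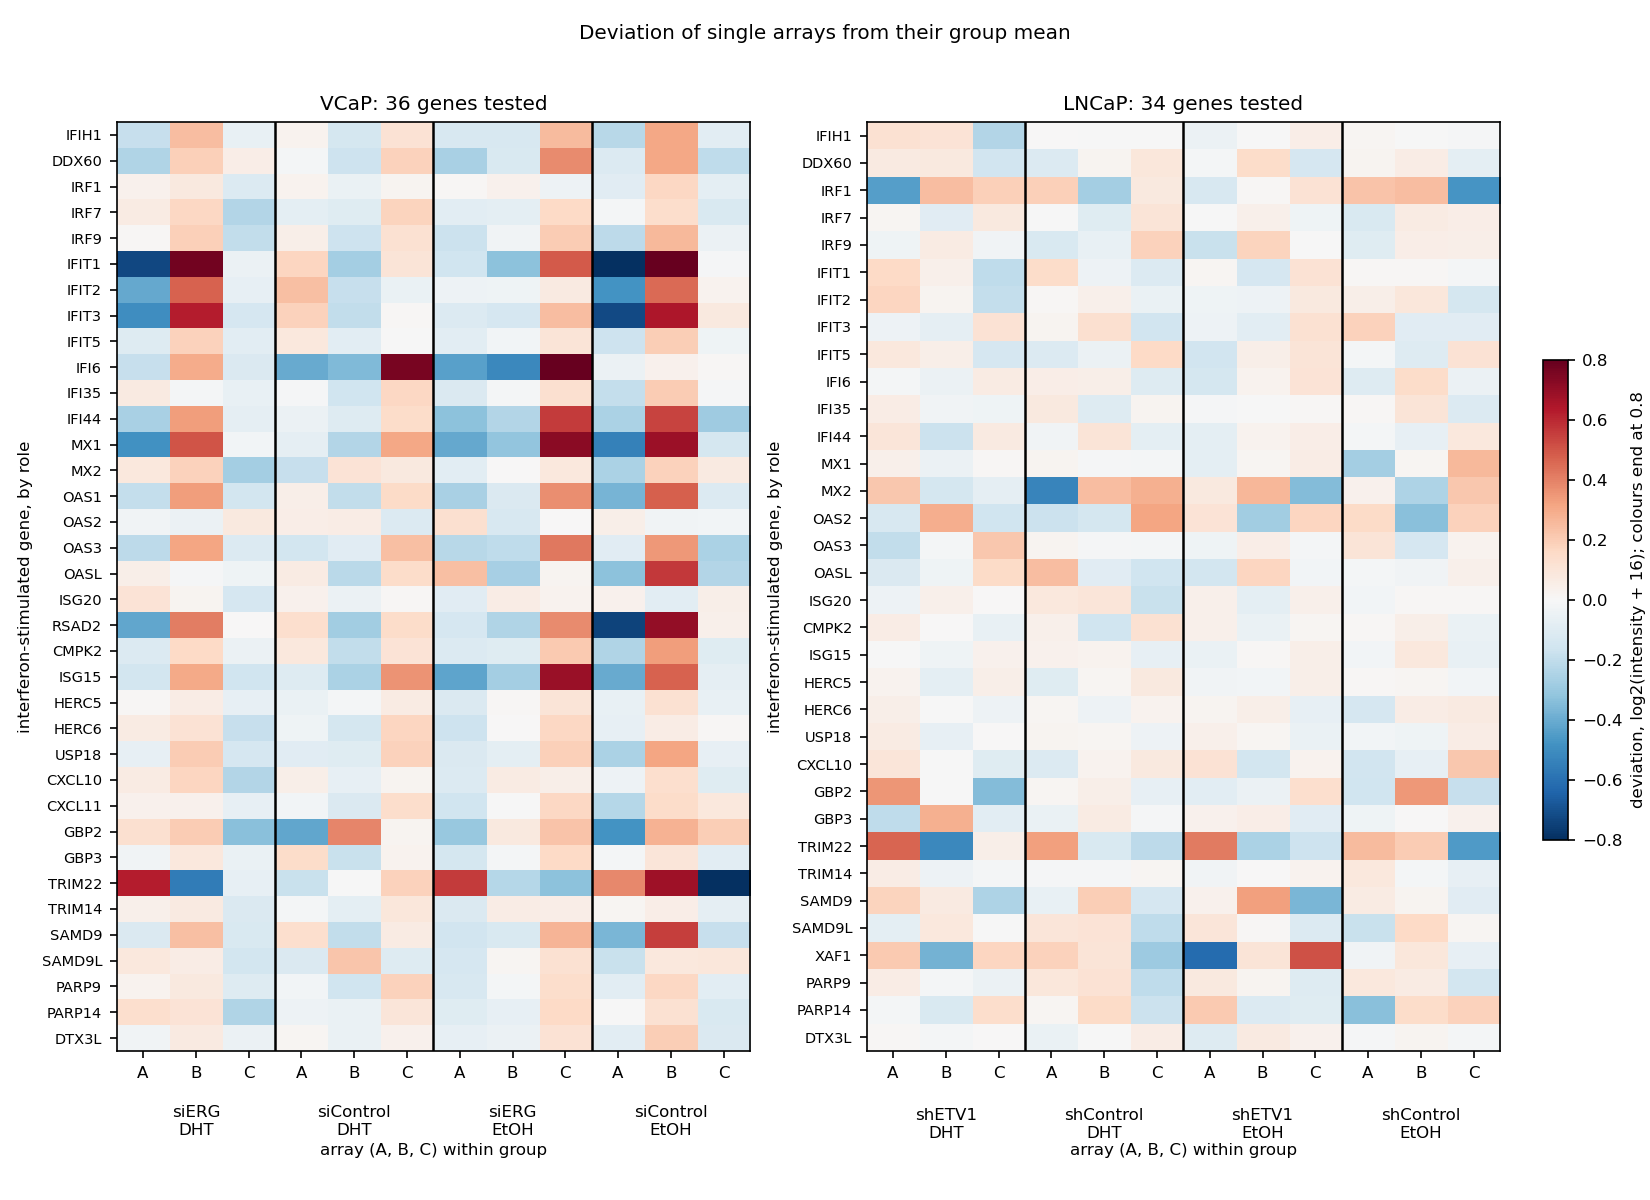
Deviation of each array from the mean of its group on the log2(intensity + 16) scale, with genes down the page by role and arrays A, B and C of each group across (red above, blue below the group mean, colours ending at 0.8). In VCaP whole columns are red or blue, with B high in 33 of 36 genes in siControl cells with EtOH, while in LNCaP columns are mixed.

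The tie was measured as the correlation, over the 12 arrays of a line, between a gene's deviation from its group mean and the mean deviation of the other members. In VCaP the median r was 0.82 over 36 members, and 24 of them (66.7%) were over 0.7, against 1.35% of the 12804 other genes. In LNCaP the median was 0.02 over 34 members, and 1 (2.94%) was over 0.7, against 3.28% of the 12789 other genes. These arrays share their scaling, and deviations within 1 group of 3 are not independent of each other. The list was also chosen with earlier results of these data known, so the values are a description of these arrays. The closest followers in VCaP were OAS1 (r = 0.99), USP18, the protease that removes ISG15 from proteins (0.98), IFIH1, the sensor MDA5 of long double-stranded RNA (0.97), CMPK2, a nucleotide kinase (0.96), and SAMD9 (0.95). ISG20, a nuclease (r = -0.09), TRIM22, a ubiquitin ligase (-0.11), and OAS2 (-0.41) did not follow. Second probe sets of the same genes were mixed. Of 9 that lay above the median on all 12 VCaP arrays, the 4 for OAS1, CXCL11, IFIT5 and 1 of TRIM14 correlated at over 0.7 with the probe set used for the same gene, and the 5 for IFIH1, IRF1, ISG20, PARP9 and the other of TRIM14 did not. Of 20 members tested in VCaP with an ISRE match 15 were over 0.7 (median 0.87), and of 8 with a window but no match 6 were (median 0.81).

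The size of the spread differed by gene. The standard deviation within groups had a median of 0.20 on the log2 scale over the 36 members in VCaP, against 0.09 over all genes, and of 0.12 over the 34 members in LNCaP, against 0.09. In VCaP 7 members spanned over 1 log2 unit between arrays of a group (19.4% against 3.12% of all genes): IFIT1, IFIT3, IFI6, MX1, RSAD2, ISG15 and TRIM22. Of these, MX1 lay above the array median on 3 of 12 arrays, RSAD2 on 4, and IFIT1 and TRIM22 on 8. The spread was not compared with that of genes of like intensity. IFI6, a mitochondrial and endoplasmic reticulum protein, read 200.2, 188 and 549.8 in siERG cells with EtOH and 348, 369 and 362 in siControl cells with EtOH, where the siControl arrays were level and siERG array C stood alone. TRIM22 read 95.5, 48.5 and 44.2 in siERG cells with EtOH and 74.9, 95.4 and 17.3 in siControl cells with EtOH, a spread in which array C was the lowest of both groups. In LNCaP 1 member did, the apoptosis factor XAF1 (17.3, 38.9 and 56.9 in shETV1 cells with EtOH), against 1.29% of all genes. The ratio of 3′ to 5′ GAPDH signal, a measure of RNA integrity, was 1.11 on siERG EtOH array C and 1.06 on siControl EtOH array B, each the highest of its group, and 1.02 on siERG DHT array B and 1.07 on siControl DHT array C, each the lowest of its group. The same ratio for ACTB ran from 2.49 to 3.56 on the VCaP arrays. It was the highest of its group on siERG EtOH array C (3.53) and siERG DHT array B (3.06). On siControl EtOH array B (3.43) it was the middle value, and on siControl DHT array C (3.46) the lowest. Of the 8 leukocyte markers only LYZ lay above the median on all 12 VCaP arrays, and 5 did so on none, so their sum is a weak measure of leukocytes. The sum was 341.8 to 448.9 on the 6 siERG arrays and 565.4 to 682.8 on the 6 siControl arrays. It was the highest of its group on siControl EtOH array B and siERG DHT array B but not on the other 2 high arrays. The part of these ratios and sums in these results was not tested.

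**Figure D2:**
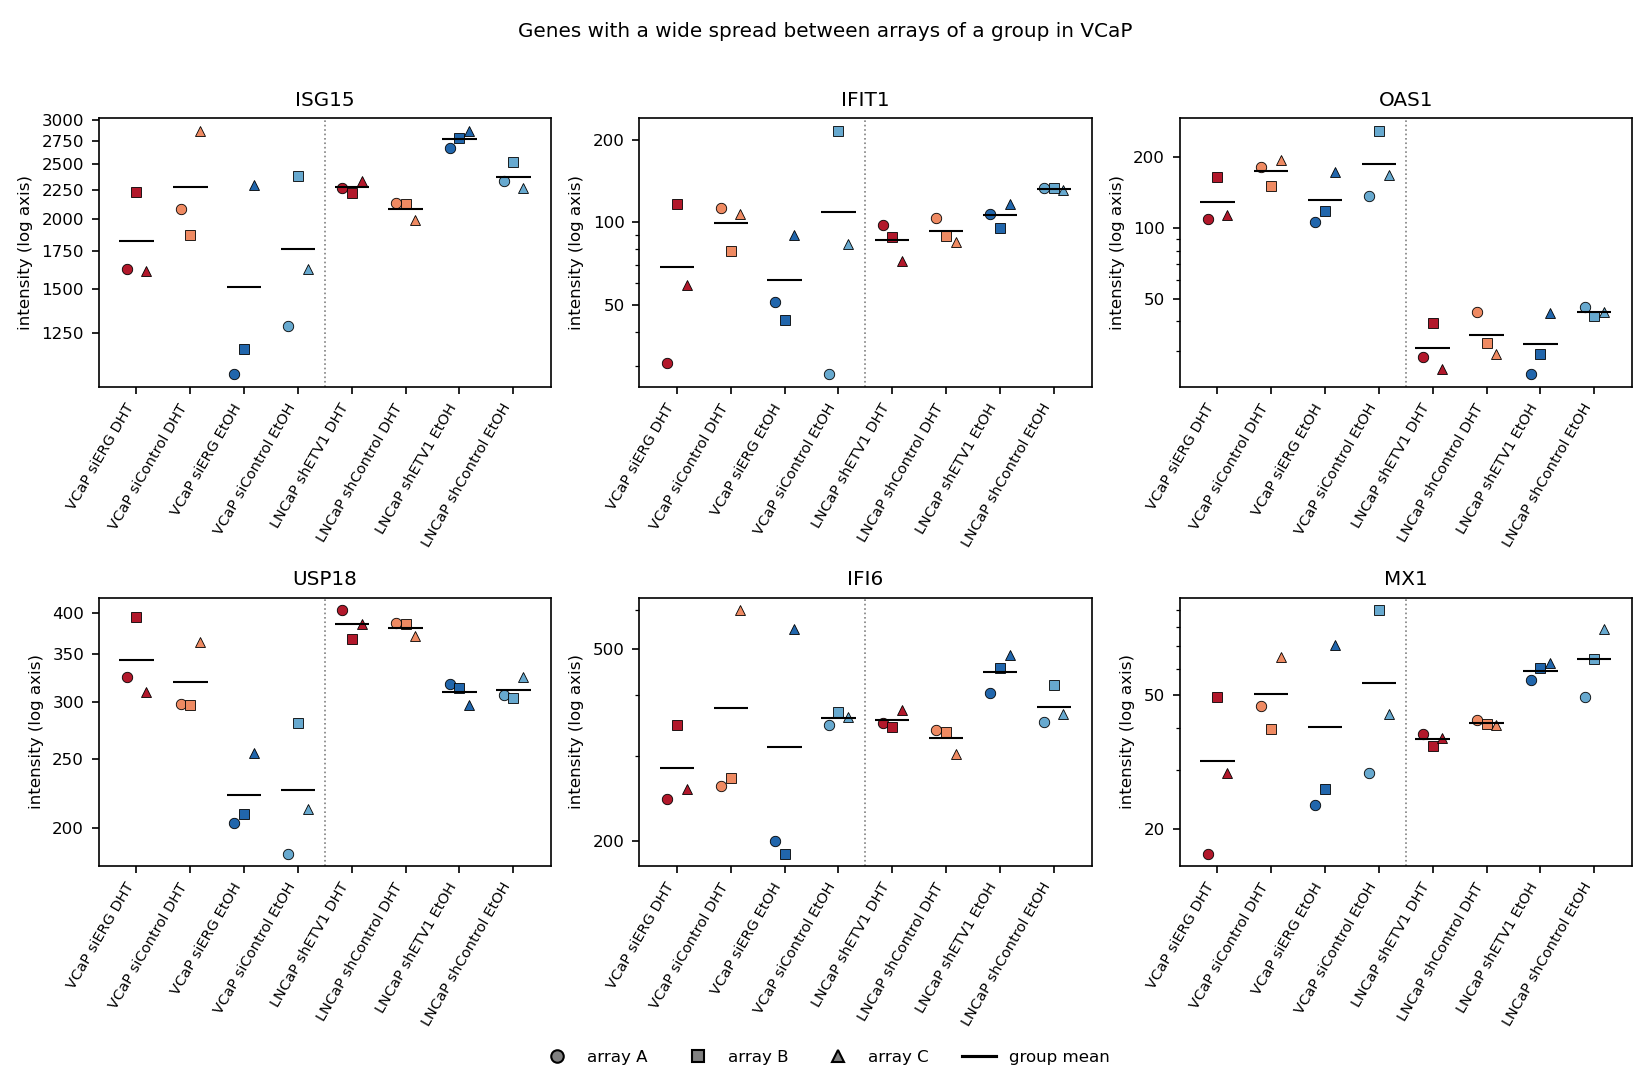
Intensity (log axis) of 6 genes on each array, by group, with arrays A, B and C as circles, squares and triangles and the group mean as a line. IFIT1 lies between 28.0 and 216 within siControl VCaP cells with EtOH, while the 3 shControl LNCaP arrays with EtOH lie between 131.0 and 133.4.

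DHT lowered 14 of the 34 tested members in LNCaP in each knockdown state and raised 3 or 4. In shETV1 cells 14 fell and 4 rose, and in shControl cells 14 fell and 3 rose (37.9% and 40.8% of all genes were called in the same comparisons, 19% and 22.3% falling and 18.8% and 18.6% rising, and groups did not overlap for 50.3% and 49.8% of all genes). The members' 41.2% falling in each knockdown state stood above the share of all genes. Their median change was -0.21 in shETV1 and -0.19 in shControl cells against -0.0034 and -0.015 over all genes. The list was chosen with earlier results of these data known, so these contrasts describe it and are no test. After each array was centred on its own median, 4 members rose and 11 fell in each state, while the share of rising genes among all calls moved to 60.8% from 49.8% in shETV1 cells and to 65.0% from 45.5% in shControl cells. The same 10 members fell in both knockdown states (71.4% of each list): IFIT2, IFIT3, IFIT5, IFI35, IFIH1, MX1, CMPK2, ISG15, IRF1 and GBP3. Of these, MX1 and IRF1 lay above the array median on EtOH arrays only. They were tested only through the group where they were high, so they give these counts and the 41.2% no support. The 3 that rose in shControl cells, HERC5, HERC6 and USP18, were among the 4 that rose in shETV1 cells.

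Of the RNA sensors 1 of 2 fell, and of the 3 transcription factors measured 3 fell in shETV1 and 1 in shControl cells. IFIH1 read 86.9, 86.2 and 64.4 in shETV1 cells with DHT against 145, 149 and 156 with EtOH, and 93.1, 92.5 and 92.7 in shControl cells with DHT against 161, 159 and 158 with EtOH. The DHT arrays lay below every EtOH array in both states, a change of -0.81 ± 0.08, adjusted p = 1.40e-05 in shETV1 cells and of -0.69 ± 0.08, adjusted p = 4.43e-05 in shControl cells. With all its probe sets averaged the falls were -0.21 in shETV1 (adjusted p = 0.0197) and -0.37 in shControl cells (adjusted p = 5.05e-04). DDX60, a helicase cofactor of RNA sensing, did not pass in either state. IRF1, the interferon-gamma-induced transcription factor, fell in both states (-0.74 ± 0.22 in shETV1 and -0.71 ± 0.22 in shControl cells), but it was above the median on 5 of the 12 arrays, all with EtOH, and so was tested only through the group where it was high. Leaving out any of 3 arrays ended the call in each state (adjusted p up to 0.0859 and 0.0980). IRF7 (-0.23 ± 0.07) and IRF9 (-0.30 ± 0.10) fell in shETV1 cells; their values in shControl cells were -0.10 ± 0.07 and -0.17 ± 0.10. The IRF9 call was lost in 7 of 22 settings, among them leaving out any of 4 arrays (adjusted p 0.0746 to 0.131), and the IRF7 call in 4, among them any of 3 arrays (up to 0.0819).

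All 4 IFIT proteins, which sequester viral RNA, fell in shControl cells and 3 of them fell in shETV1 cells. IFIT5 read 89.8, 87.4 and 75.2 in shETV1 cells with DHT against 124, 145 and 152 with EtOH, and 82.2, 86.3 and 102 in shControl cells with DHT against 156, 145 and 172 with EtOH. No DHT array reached an EtOH array, and the change was -0.64 ± 0.09, adjusted p = 2.80e-04 in shETV1 cells and -0.71 ± 0.09, adjusted p = 1.21e-04 in shControl cells. IFIT2 changed by -0.40 ± 0.09 in shETV1 and -0.63 ± 0.09 in shControl cells and IFIT3 by -0.60 ± 0.10 in shETV1 and -0.54 ± 0.10 in shControl cells. IFIT1 fell in shControl cells (-0.45 ± 0.10, adjusted p = 0.00321) and had -0.26 ± 0.10, adjusted p = 0.0568 in shETV1 cells. Among the IFI genes, IFI35, a leucine zipper protein, fell in both states (-0.46 ± 0.06 in shETV1 and -0.42 ± 0.06 in shControl cells), IFI6 in shETV1 cells (-0.32 ± 0.08) and IFI44 in shControl cells (-0.26 ± 0.08). The IFI44 call was lost in 6 of 22 settings, among them leaving out any of 3 arrays (adjusted p up to 0.0735).

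CMPK2, a mitochondrial kinase of pyrimidine nucleotides, had the lowest change among the members in both states. It read 88.0, 84.1 and 79.9 in shETV1 cells with DHT against 178, 167 and 175 with EtOH, and 89.3, 75.6 and 95.6 in shControl cells with DHT against 236, 244 and 226 with EtOH. The groups lay far apart and the changes were -0.92 ± 0.07, adjusted p = 1.39e-06 in shETV1 cells and -1.29 ± 0.07, adjusted p = 7.81e-08 in shControl cells. MX1 fell in both states (-0.51 ± 0.10 in shETV1 and -0.46 ± 0.10 in shControl cells), but the 6 arrays on which it lay above the median were the 6 with EtOH, so it was tested only through the group where it was high. OAS3 (-0.25 ± 0.09) and OASL (-0.58 ± 0.11), of the oligoadenylate synthetase family, fell in shControl cells. RSAD2, the neighbour of CMPK2 on chromosome 2, was not tested in LNCaP, where it read 15.9 to 35.8.

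The ISG15 pathway split. ISG15 itself read 2273, 2225 and 2336 in shETV1 cells with DHT against 2669.9, 2784 and 2863 with EtOH, and 2132, 2124 and 1987 in shControl cells with DHT against 2332, 2521 and 2273 with EtOH. The groups did not overlap and the falls were small, at -0.28 ± 0.05 in shETV1 and -0.19 ± 0.05 in shControl cells. HERC5, the ligase that attaches ISG15, rose: it read 357, 331 and 361 in shETV1 cells with DHT against 172, 173 and 183 with EtOH, and 268, 292 and 306 in shControl cells with DHT against 161, 162 and 158 with EtOH. Every DHT array was above every EtOH array, and the change was 0.93 ± 0.05, adjusted p = 1.69e-07 in shETV1 cells and 0.79 ± 0.05, adjusted p = 5.86e-07 in shControl cells. Its neighbour HERC6 (0.41 ± 0.06 in shETV1 and 0.36 ± 0.06 in shControl cells) and the protease USP18 (0.30 ± 0.05 in shETV1 and 0.28 ± 0.05 in shControl cells) rose in both states. HERC6 no longer passed when all probe sets of a gene were averaged (0.11 in shETV1 and 0.12 in shControl cells).

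GBP3, a guanylate-binding protein induced by interferon-gamma, read 23.2, 38.9 and 26.5 in shETV1 cells with DHT against 61.5, 62.5 and 55.1 with EtOH, and 66.5, 73.7 and 69.0 in shControl cells with DHT against 119.6, 123 and 126 with EtOH. The falls were -0.75 ± 0.10 in shETV1 and -0.70 ± 0.10 in shControl cells, with no overlap of groups. GBP2 fell in shETV1 cells (-0.49 ± 0.17, adjusted p = 0.0446) and had -0.38 ± 0.17 in shControl cells. TRIM14 rose in shETV1 cells (0.19 ± 0.05). The chemokine CXCL10 and the members SAMD9, SAMD9L, XAF1, TRIM22, PARP9, PARP14, DTX3L, MX2, OAS2, ISG20 and DDX60 passed in neither state. Of the 17 calls in shControl cells 12 passed under every alternative tried, and of the 18 in shETV1 cells 13 did. MX1, tested only through its EtOH arrays, is included in both counts. The calls of OAS3 in shControl cells and GBP2 in shETV1 cells lay near the threshold. Leaving out any of 9 arrays, some outside the groups compared, took OAS3 to an adjusted p of 0.0618 to 0.159. Leaving out any of 9, again some outside the groups compared, took GBP2 to 0.0505 to 0.164.

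**Figure D3:**
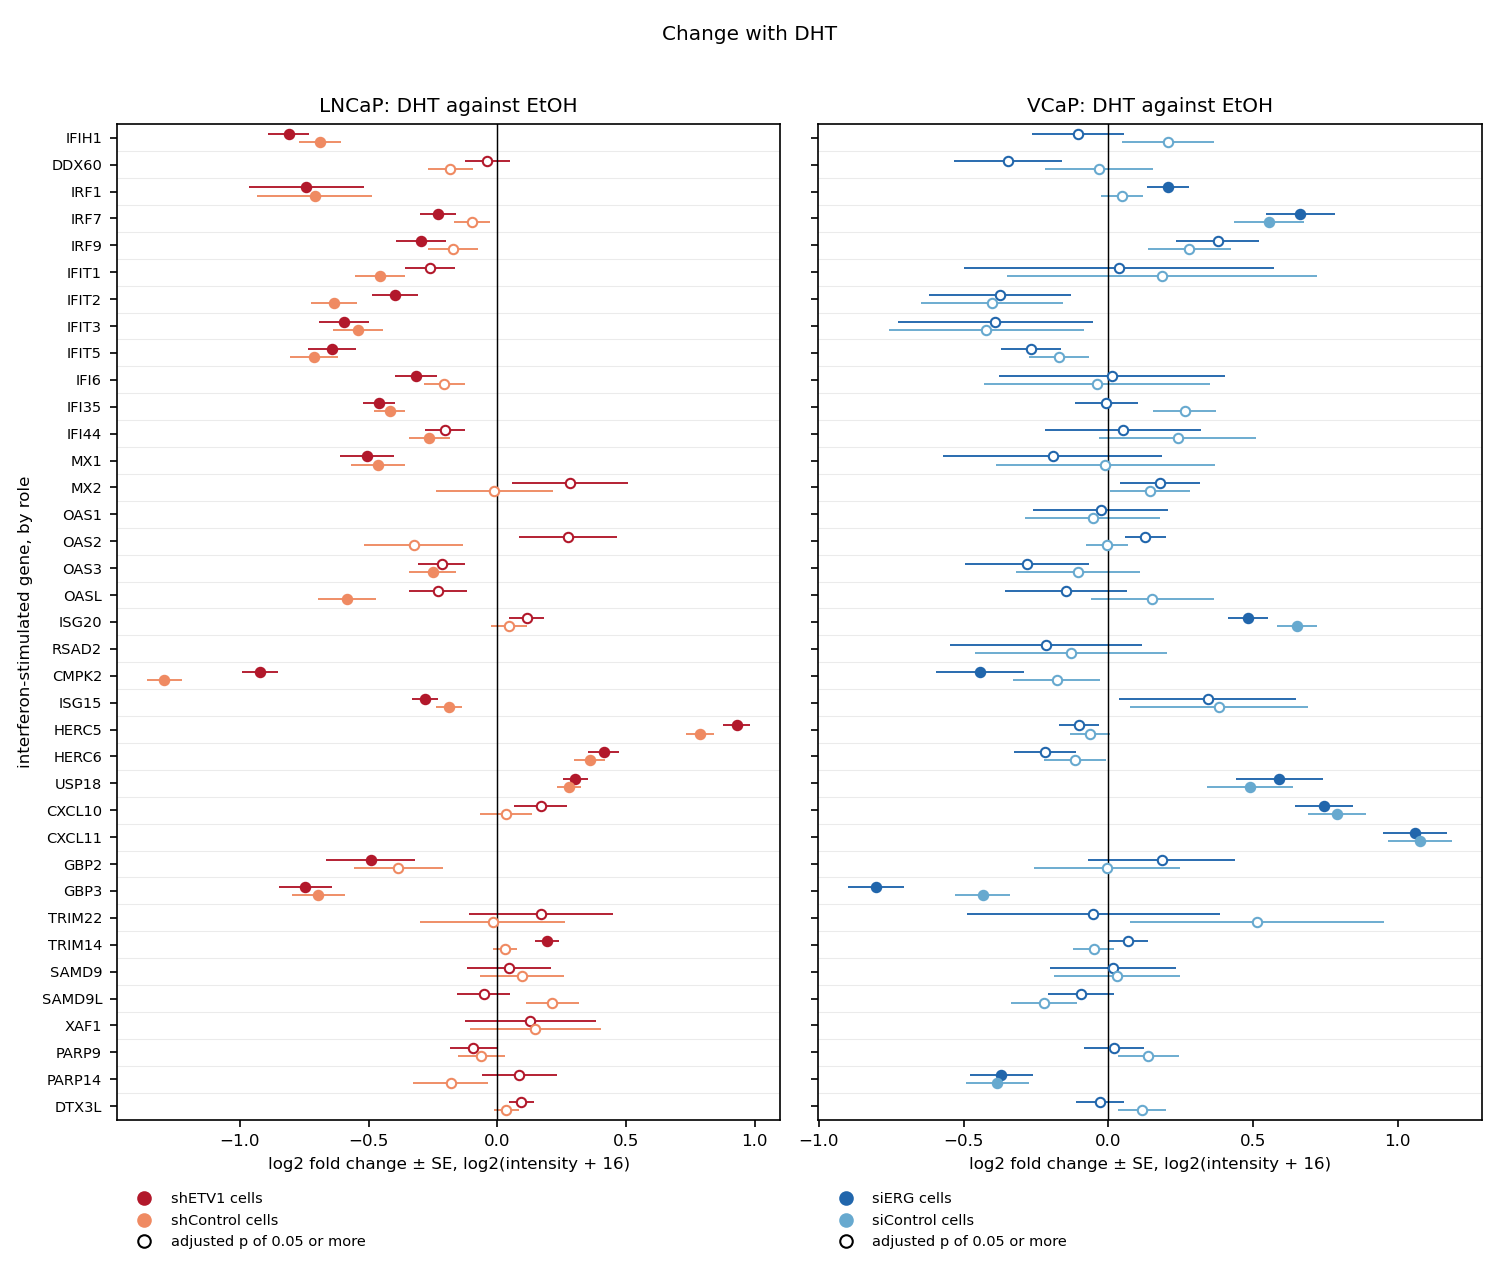
Log2 fold change with DHT against EtOH for each tested gene, with standard errors, in LNCaP (left) and VCaP (right); filled points have an adjusted p under 0.05. In LNCaP most filled points lie left of 0 with HERC5, HERC6 and USP18 on the right, and in VCaP the filled points on the right are led by CXCL11 and CXCL10.

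In VCaP DHT raised both chemokines of the list together with ISG20, USP18 and IRF7, and lowered GBP3 and PARP14. In siERG cells 6 of 36 members rose and 3 fell, and in siControl cells 5 rose and 2 fell (45.3% and 45% of all genes were called in the same comparisons, 20.1% and 19.6% rising and 25.2% and 25.4% falling, and groups did not overlap for 52.1% and 56.9%). At 25% and 19.4% of the members, these shares lay under those of all genes; the median standard error of the members was 0.15, against 0.07 over all genes. All 5 that rose in siControl cells rose in siERG cells too (83.3% of the 6 there), and both that fell in siControl cells fell in siERG cells. After each array was centred on its own median 9 rose and 1 fell in siERG cells and 6 rose and 2 fell in siControl cells, with 67.6% and 57.0% of all calls rising, against 44.3% and 43.5% as deposited.

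CXCL11 and CXCL10, neighbours on chromosome 4 that draw T cells through the receptor CXCR3, had the highest changes. CXCL11 read 493, 494 and 459.7 in siERG cells with DHT against 198, 222 and 252 with EtOH, and 400.4, 375 and 451 in siControl cells with DHT against 155, 207 and 197 with EtOH. All DHT arrays lay above all EtOH arrays, with changes of 1.06 ± 0.11, adjusted p = 2.17e-05 in siERG cells and 1.08 ± 0.11, adjusted p = 1.96e-05 in siControl cells. CXCL10 read 451, 487 and 365 in siERG cells with DHT against 231, 263 and 259 with EtOH, and 358, 329 and 352 in siControl cells with DHT against 188, 214 and 179 with EtOH. Its changes were 0.75 ± 0.10 in siERG and 0.79 ± 0.10 in siControl cells, again with no overlap. In LNCaP CXCL10 read 26.5 to 56.9 over the 12 arrays and CXCL11 20.7 to 42.3.

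ISG20, an exonuclease that degrades single-stranded RNA, read 282, 264 and 236 in siERG cells with DHT against 169, 190.0 and 185 with EtOH, and 338, 319 and 333 in siControl cells with DHT against 209.7, 192 and 211 with EtOH. It was level between arrays and rose by 0.48 ± 0.07 in siERG and 0.65 ± 0.07 in siControl cells. IRF7 rose by 0.66 ± 0.12 in siERG and 0.56 ± 0.12 in siControl cells, and USP18 by 0.59 ± 0.15 in siERG and 0.49 ± 0.15 in siControl cells. GBP3 read 121, 132 and 118 in siERG cells with DHT against 204, 225 and 255 with EtOH, and 203, 159 and 186 in siControl cells with DHT against 248, 270.1 and 236 with EtOH. It fell in both states (-0.80 ± 0.10 in siERG and -0.43 ± 0.10 in siControl cells), as did PARP14, a mono-ADP-ribosyltransferase (-0.37 ± 0.11 in siERG and -0.38 ± 0.11 in siControl cells). CMPK2 and IRF1 passed in siERG cells and not in siControl cells: CMPK2 fell (-0.44 ± 0.15) and IRF1 rose (0.21 ± 0.07); their values in siControl cells were -0.18 ± 0.15 and 0.05 ± 0.07, and the difference between the states did not pass for either gene. Leaving out any of 7 arrays ended the IRF1 call (adjusted p up to 0.131). The CMPK2 call was lost in 8 of 22 settings, among them leaving out any of 3 arrays (adjusted p up to 0.124).

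The members with the widest spread between arrays gave wide errors here. IFIT1 had 0.04 ± 0.54 in siERG and 0.19 ± 0.54 in siControl cells, MX1 had -0.19 ± 0.38 in siERG and -0.01 ± 0.38 in siControl cells, ISG15 had 0.34 ± 0.31 in siERG and 0.38 ± 0.31 in siControl cells, and OAS1 had -0.03 ± 0.23 in siERG and -0.05 ± 0.23 in siControl cells. None of these passed, and for IFIT1, MX1 and ISG15 the errors leave room for falls of the size seen in LNCaP. Of the 7 calls in siControl cells 5 passed under every alternative and of the 9 in siERG cells 3 did (CXCL10, CXCL11 and USP18). With the GAPDH ratio as a covariate 3 calls were left in siERG cells. The changes of the other 6 were then 0.80 for IRF7, 0.44 for ISG20, -0.60 for GBP3, 0.21 for IRF1, -0.20 for PARP14 and -0.02 for CMPK2. That ratio averaged 1.03 ± 0.01 in siERG cells with DHT and 1.09 ± 0.02 in siERG cells with EtOH (SD, n = 3 each), so ratio and treatment cannot be told apart there. PARP14 in siControl cells was lost when array B with EtOH was left out (adjusted p = 0.0568) and with averaged probe sets, and USP18 in siControl cells without EtOH array A, EtOH array C or DHT array C (0.0628 to 0.0832).

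The response to DHT differed between the lines for part of the members, at a share near that of all genes. In 1 fit of all 24 arrays, the change in LNCaP shControl cells minus the change in VCaP siControl cells passed for 12 of 33 members (36.4%). In LNCaP 3 of the 33 were higher (9.09%) and 9 lower (27.3%). Of all 12305 genes 31.9% passed, 17.6% higher and 14.3% lower. HERC5 (0.85 ± 0.09) and HERC6 (0.47 ± 0.13), which rose in LNCaP, had -0.06 ± 0.07 and -0.11 ± 0.11 in VCaP siControl cells. CMPK2 differed by -1.11 ± 0.17 and IFIH1 by -0.89 ± 0.19, both having fallen in LNCaP; with averaged probe sets the IFIH1 difference was -0.29 (adjusted p = 0.0698) and that of HERC6 0.12 (adjusted p = 0.743). ISG20 (-0.61 ± 0.10), IRF7 (-0.65 ± 0.14) and CXCL10 (-0.76 ± 0.15) were lower in LNCaP too, having risen in VCaP. In LNCaP CXCL10 lay above the array median on no shControl array, and IRF1 did so on EtOH arrays only. The differences of CXCL10 and IRF1, counted among the 12, thus give no support. For GBP3, which fell in both lines, the difference was -0.26 ± 0.14, adjusted p = 0.189, and for IFIT1 it was -0.64 ± 0.57, adjusted p = 0.439. Of the 12 differences 7 passed under every alternative (CMPK2, CXCL10, HERC5, IFI35, IFIT5, IRF7 and ISG20), while OASL was lost without any of 7 arrays (adjusted p up to 0.0940), SAMD9L without any of 9 (up to 0.119) and IRF1 without any of 5 (up to 0.0743). The lines also differ in the control reagent, an shRNA or an siRNA, which cannot be told apart from the line.

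Knockdown of ETV1 in LNCaP lowered GBP3 and SAMD9 with both treatments. With DHT 2 of 34 members rose and 3 fell, and with EtOH 1 rose and 5 fell (5.19% and 4.2% of all genes were called, 2.68% and 1.22% rising and 2.5% and 2.97% falling, and groups did not overlap for 26.5% and 24.1%). GBP3 read 23.2, 38.9 and 26.5 in shETV1 cells against 66.5, 73.7 and 69.0 in shControl cells with DHT, and 61.5, 62.5 and 55.1 in shETV1 cells against 119.6, 123 and 126 in shControl cells with EtOH. The groups did not overlap with either treatment, and the change was -0.93 ± 0.10, adjusted p = 5.38e-04 with DHT and -0.88 ± 0.10, adjusted p = 7.10e-04 with EtOH. GBP3 was the 1 member whose call passed under every alternative in both comparisons. On the intensity scale GBP3 in shETV1 cells with DHT, at 29.6 on average, lay under the array median.

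SAMD9, a cytoplasmic restriction factor of poxviruses, read 45.7, 41.2 and 29.99 in shETV1 cells against 75.2, 93.0 and 70.8 in shControl cells with DHT, and 38.2, 50.2 and 25.1 in shETV1 cells against 77.3, 74.6 and 67.6 in shControl cells with EtOH. Its groups did not overlap, with changes of -0.80 ± 0.16 with DHT and -0.75 ± 0.16 with EtOH. With EtOH CMPK2 (-0.41 ± 0.07, adjusted p = 0.00771), IFI44 (-0.35 ± 0.08, adjusted p = 0.0337) and DTX3L (-0.24 ± 0.05, adjusted p = 0.0229) fell and ISG15 rose (0.22 ± 0.05, adjusted p = 0.0369). With DHT IFI35 fell (-0.24 ± 0.06, adjusted p = 0.0489), while HERC5 (0.26 ± 0.05, adjusted p = 0.0189) and CXCL10 (0.50 ± 0.10, adjusted p = 0.0195) rose. CXCL10 read 56.9, 52.2 and 47.8 in shETV1 cells against 28.8, 33.1 and 35.0 in shControl cells with DHT, and 49.9, 38.9 and 45.9 in shETV1 cells against 26.5, 29.1 and 38.8 in shControl cells with EtOH. With EtOH its change was 0.36 ± 0.10, adjusted p = 0.0755. The 5 LNCaP arrays on which CXCL10 lay above the median were all of shETV1 cells, so it was tested only through the group where it was high and its call gives no support. Several calls were lost when any of a number of single arrays was left out. They were IFI35 with DHT (any of 9 arrays, adjusted p up to 0.137), ISG15 with EtOH (8 arrays, up to 0.129), IFI44 with EtOH (6 arrays, up to 0.117), SAMD9 (5 arrays with EtOH, up to 0.104, and 3 with DHT, up to 0.0808), DTX3L (5, up to 0.0692), HERC5 (4, up to 0.0743) and CXCL10 (4, up to 0.0774).

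**Figure D4:**
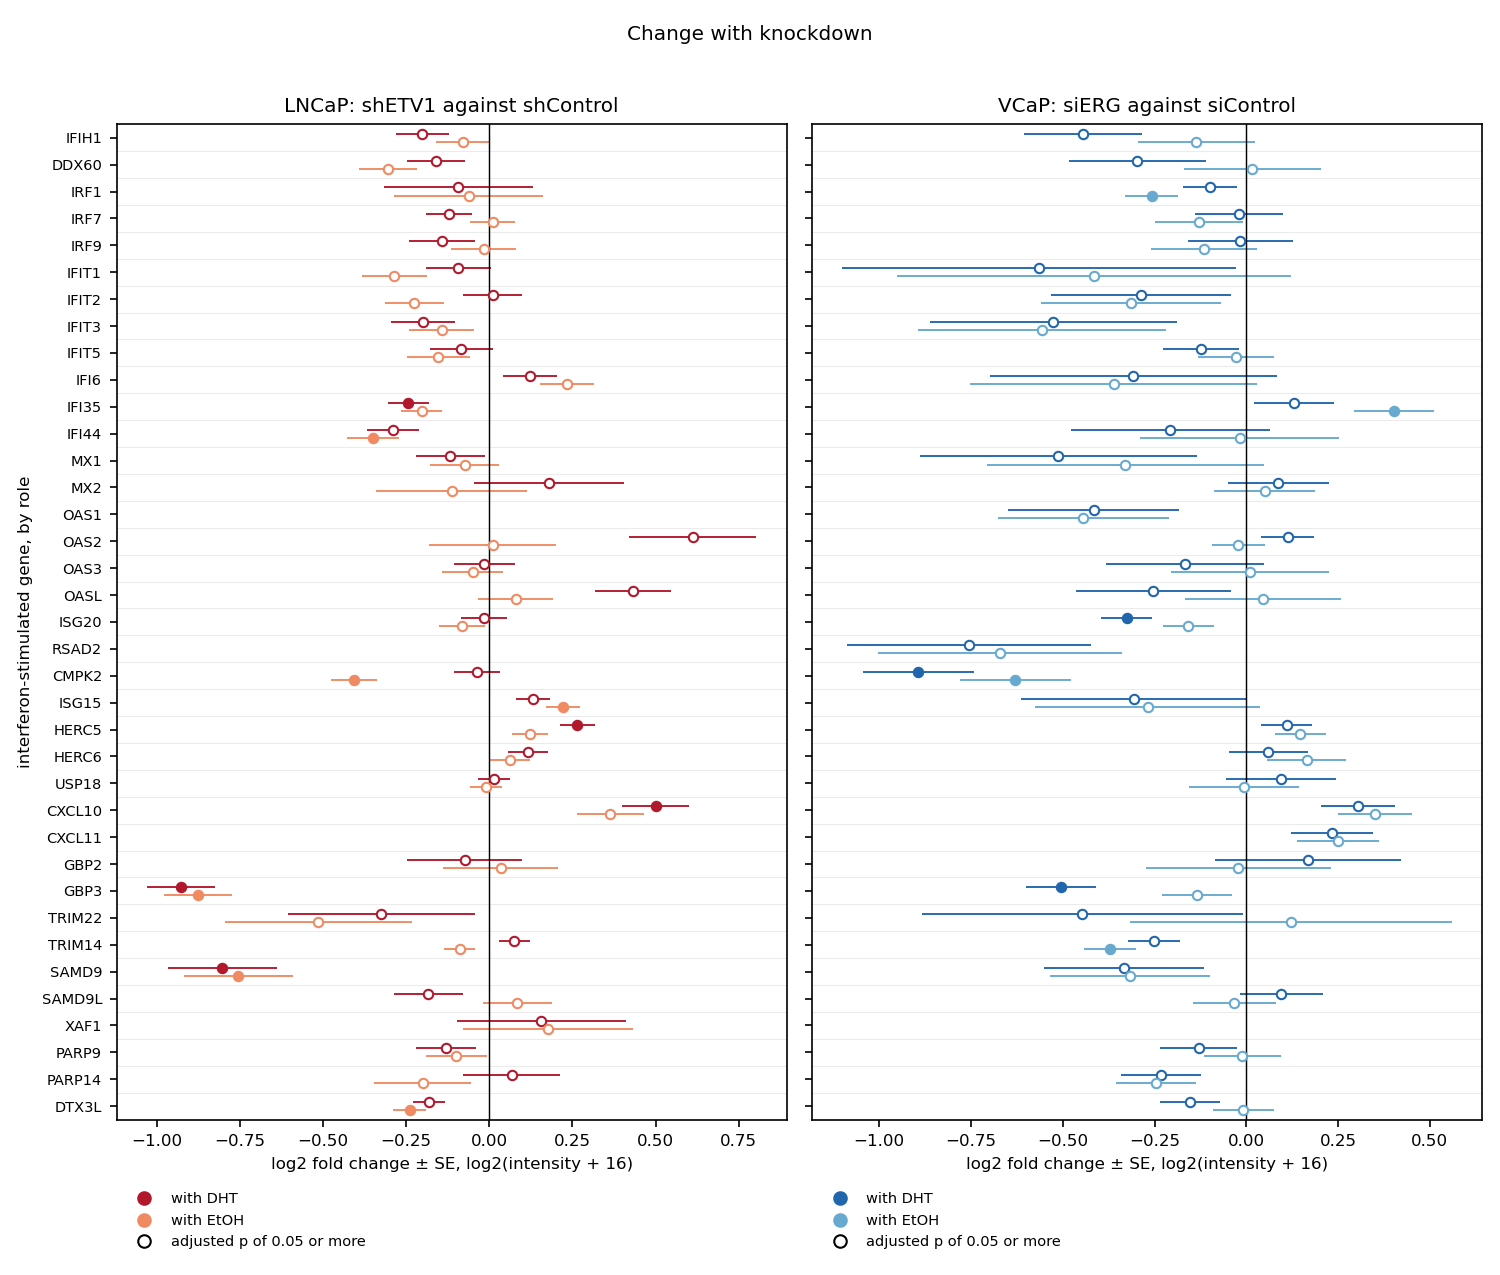
Log2 fold change with knockdown for each tested gene, with standard errors, for shETV1 against shControl in LNCaP (left) and siERG against siControl in VCaP (right), with DHT and with EtOH; filled points have an adjusted p under 0.05. GBP3 and SAMD9 lie left of 0 in LNCaP with both treatments, and in VCaP CMPK2 does, where IFIT1 and TRIM22 carry the longest error bars.

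Knockdown of ERG in VCaP lowered CMPK2 with both treatments. With DHT 0 of 36 members rose and 3 fell, and with EtOH 1 rose and 3 fell (8.97% and 11.2% of all genes were called, 3.79% and 5.37% rising and 5.18% and 5.87% falling, and groups did not overlap for 24.9% and 35.1%). These shares, 8.33% and 11.1%, lay near those of all genes. CMPK2 read 101, 125 and 106 in siERG cells against 232, 189 and 237 in siControl cells with DHT, and 143, 144 and 182 in siERG cells against 209, 319 and 232 in siControl cells with EtOH. The groups did not overlap and the change was -0.89 ± 0.15, adjusted p = 0.00436 with DHT and -0.63 ± 0.15, adjusted p = 0.0244 with EtOH. With EtOH the call was lost without siControl array B, the array on which most members were high, or without siERG array A or B (adjusted p 0.0648 to 0.0867).

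With DHT GBP3 (-0.50 ± 0.10, adjusted p = 0.00834) and ISG20 (-0.33 ± 0.07, adjusted p = 0.0145) fell as well. GBP3 read 121, 132 and 118 in siERG cells against 203, 159 and 186 in siControl cells, with no overlap. With EtOH TRIM14 (-0.37 ± 0.07, adjusted p = 0.00777) and IRF1 (-0.26 ± 0.07, adjusted p = 0.0471) fell and IFI35 rose (0.40 ± 0.11, adjusted p = 0.0404). TRIM14 read 746, 844 and 839 in siERG cells against 1063, 1090.0 and 997 in siControl cells, apart on every array, but the mean of its probe sets changed by -0.10. IRF1 was lost without any of 11 of the 12 arrays (adjusted p up to 0.140), IFI35 without any of 6 (up to 0.136) and ISG20 without siControl DHT array A or C (0.0533 and 0.0553). With the GAPDH ratio as a covariate none of the 7 calls passed. With EtOH the changes were then -0.90 for CMPK2, -0.41 for TRIM14, -0.26 for IRF1 and 0.22 for IFI35, and with DHT -0.59 for CMPK2, -0.36 for GBP3 and -0.36 for ISG20. The ratio averaged 1.03 ± 0.01 in siERG and 1.07 ± 0.01 in siControl cells with DHT, and 1.09 ± 0.02 in siERG and 1.05 ± 0.01 in siControl cells with EtOH (SD, n = 3 each). With neither treatment did siERG and siControl arrays overlap in this ratio, so ratio and knockdown cannot be told apart here.

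The chemokines lay higher in siERG cells with both treatments without passing. CXCL10 read 451, 487 and 365 in siERG cells against 358, 329 and 352 in siControl cells with DHT, and 231, 263 and 259 in siERG cells against 188, 214 and 179 in siControl cells with EtOH. The siERG arrays were above the siControl arrays in both pairs, and the change was 0.30 ± 0.10, adjusted p = 0.0945 with DHT and 0.35 ± 0.10, adjusted p = 0.0504 with EtOH. CXCL11 had 0.23 ± 0.11 with DHT and 0.25 ± 0.11 with EtOH. RSAD2 had -0.76 ± 0.33 with DHT and -0.67 ± 0.33 with EtOH, ISG15 had -0.31 ± 0.31 with DHT and -0.27 ± 0.31 with EtOH, and IFIT1 had -0.56 ± 0.54 with DHT and -0.42 ± 0.54 with EtOH, and none passed.

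**Figure D5:**
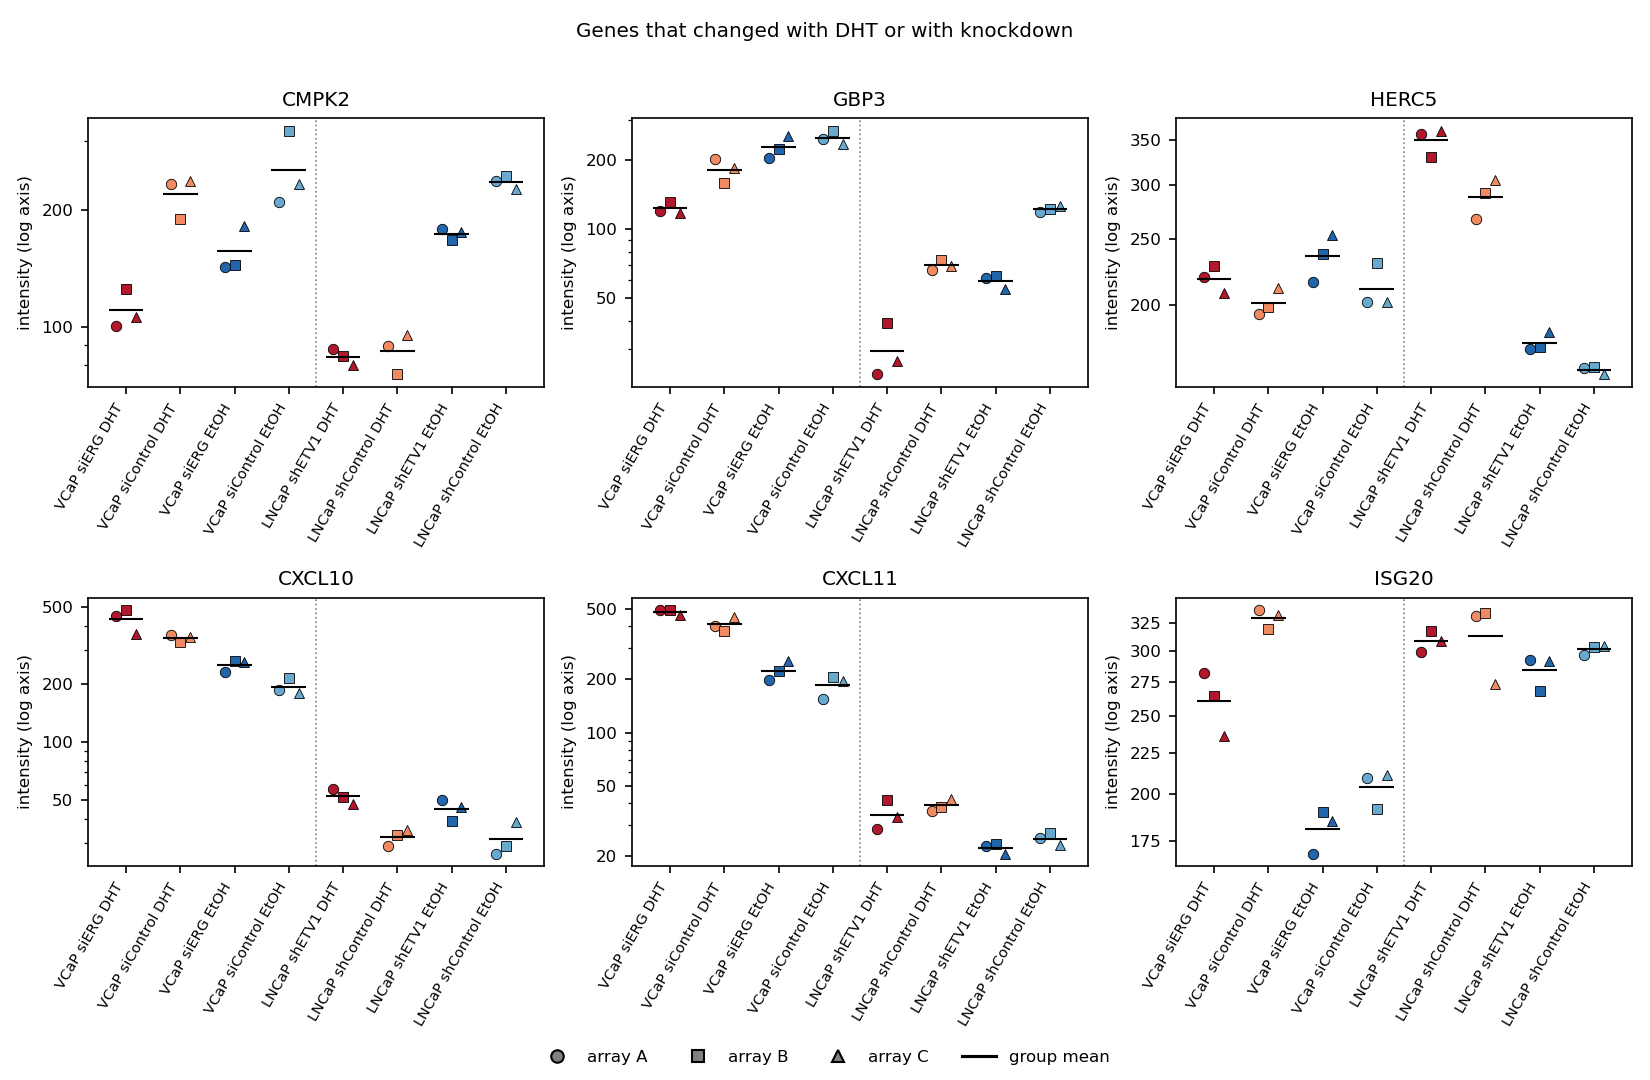
Intensity (log axis) of 6 genes on each array, by group, with arrays A, B and C as circles, squares and triangles and the group mean as a line. Within LNCaP GBP3 is lowest in shETV1 cells with DHT (23.2 to 38.9), and within VCaP CXCL10 and CXCL11 are highest with DHT.

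Neither knockdown changed the response of a member to DHT by a margin that passed. In limma's test of the difference between the DHT responses, 0 of 36 members passed in VCaP and 0 of 34 in LNCaP (0.288% and 0.101% of all genes did, 0.0623% and 0.078% upward and 0.226% and 0.0234% downward), and 1 and 3 had an unadjusted p under 0.05; the counts were 0 under every alternative tried. The knockdown effects differed between the lines for GBP3 (-0.74 ± 0.14, adjusted p = 0.00251), IFI35 (-0.60 ± 0.13, adjusted p = 0.00483) and TRIM14 (0.28 ± 0.08, adjusted p = 0.041) with EtOH, as shETV1 effect minus siERG effect. The TRIM14 difference was 0.02 with averaged probe sets (adjusted p = 0.945) and was lost without any of 9 arrays (up to 0.106). With DHT they differed for CMPK2 (0.86 ± 0.17, adjusted p = 0.00348) and TRIM14 (0.33 ± 0.08, adjusted p = 0.0203), the TRIM14 difference being 0.30 with averaged probe sets (adjusted p = 0.0898) and lost without either of 2 arrays (up to 0.0632). In all, 7.5% of 12305 genes passed with DHT (4.28% upward and 3.22% downward) and 9.56% with EtOH (4.16% upward and 5.4% downward). The members' shares, 6.06% with DHT and 9.09% with EtOH, were no higher. Over the 8 comparisons of groups within a line, which share groups and so are not independent, 28 of the 37 members tested in a line were called at least once (75.7%), against 69.9% of all 13358 such genes. GBP3 fell in 7 of the 8, CMPK2 in 6, and USP18 rose in 4. The 9 members tested but never called were DDX60, MX2, OAS1, OAS2, RSAD2, TRIM22, SAMD9L, XAF1 and PARP9, and 6 members rose in one comparison and fell in another: IFI35, ISG20, ISG15, IRF1, IRF7 and TRIM14.

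The rest of the pathway was read from lists of its other genes, whose counts are to be read against the shares of all genes called. Those were 37.9% for DHT in shETV1, 40.8% in shControl, 45.3% in siERG and 45% in siControl cells, 5.19% and 4.2% for shETV1 with DHT and with EtOH, and 8.97% and 11.2% for siERG with DHT and with EtOH. Of 10 interferon genes 9 had a probe set and 2 were tested in each line, and 1 was called once: IFNE, an epithelial interferon, fell with DHT in VCaP siControl cells (-0.49 ± 0.12, adjusted p = 0.0068). It averaged 42.8 there with DHT, under the median of every VCaP array, and 67.3 with EtOH. IFNE may thus have been tested through the group where it was high. The kinase JAK1, which the receptor activates, read 347 to 422 over the 12 VCaP arrays and 73.5 to 121.9 over the 12 LNCaP arrays and was called in none of the 8 comparisons; lines were not tested for level. Of the 10 receptor and JAK-STAT genes tested in VCaP, 3 rose and 2 fell with DHT in siERG cells and 4 rose and 2 fell in siControl cells. IL10RB, a subunit of the lambda interferon receptor, rose (0.54 ± 0.04 in siERG and 0.47 ± 0.04 in siControl cells), and its partner IFNLR1 fell (-0.41 ± 0.07 in siERG and -0.44 ± 0.07 in siControl cells). Of 9 such genes in LNCaP 4 rose with DHT in both states, among them the interferon-gamma receptor IFNGR1 (0.48 ± 0.05 in shETV1 and 0.44 ± 0.05 in shControl cells), and JAK2 fell in shControl cells (-0.21 ± 0.06).

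Among 8 negative regulators, PIAS1, which inhibits STAT proteins, rose with DHT in all 4 comparisons (0.70 ± 0.05 in shETV1, 0.79 ± 0.05 in shControl, 0.59 ± 0.05 in siERG and 0.71 ± 0.05 in siControl cells), as did the phosphatase PTPN1. Of these 8 regulators 2 rose and 1 fell in each LNCaP state, and 3 rose and 0 fell in siERG and 2 rose and 0 fell in siControl VCaP cells. TNFAIP3, which restrains NF-kB, rose with DHT in LNCaP (1.52 ± 0.09 in shETV1 and 1.81 ± 0.09 in shControl cells) and in VCaP (0.61 ± 0.08 in siERG and 0.88 ± 0.08 in siControl cells). With shETV1 and DHT it fell (-0.48 ± 0.09). Of the 5 genes of the NF-kB list tested in LNCaP 2 rose and 1 fell with DHT in each state, and of the 8 tested in VCaP 3 rose and 3 fell in siERG and 3 rose and 2 fell in siControl cells. NFKB1, a subunit of NF-kB itself, fell in all 4 comparisons (-0.68 ± 0.04 in shETV1, -0.68 ± 0.04 in shControl, -0.36 ± 0.06 in siERG and -0.47 ± 0.06 in siControl cells). Of 25 further interferon-induced genes tested in LNCaP, 2 rose and 6 fell with DHT in shETV1 cells and 1 rose and 10 fell in shControl cells, SP110 (-0.37 ± 0.04 in shETV1 and -0.32 ± 0.04 in shControl cells) being among them. Of 13 antigen presentation genes 1 rose and 5 fell in each LNCaP state: B2M, the light chain of class I molecules, rose (0.32 ± 0.04 in shETV1 and 0.31 ± 0.04 in shControl cells) and the peptide editor TAPBP fell (-0.45 ± 0.07 in shETV1 and -0.44 ± 0.07 in shControl cells). With shETV1 the class I heavy chain HLA-C fell (-0.20 ± 0.04 with DHT and -0.19 ± 0.04 with EtOH), and with siERG the immunoproteasome subunit PSMB8 fell (-0.27 ± 0.06 with DHT and -0.24 ± 0.06 with EtOH). Of 26 further interferon-induced genes in VCaP 3 rose and 7 fell with DHT in siERG cells and 3 rose and 5 fell in siControl cells, IRF8, a transcription factor of the IRF family, being among those that fell (-0.50 ± 0.05 in siERG and -0.70 ± 0.05 in siControl cells).

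Upstream of interferon, 2 of 10 nucleic acid sensing genes rose and 2 fell with DHT in shETV1 cells, and 0 rose and 2 fell in shControl cells. RIGI, the sensor of short double-stranded RNA, fell (-0.38 ± 0.09 in shETV1 and -0.37 ± 0.09 in shControl cells), as did TRIM25, the ligase that activates it (-0.38 ± 0.10 in shETV1 and -0.36 ± 0.10 in shControl cells). With knockdown, 0 of the sensing genes and 0 of the negative regulators were called in any of the 4 comparisons. Of 26 further interferon-induced genes 0 rose and 3 fell with siERG under each treatment, LY6E, a membrane protein, being among them (-0.44 ± 0.10 with DHT and -0.49 ± 0.10 with EtOH). Of the 25 tested in LNCaP, 1 rose and 3 fell with shETV1 and DHT, and 0 rose and 1 fell with EtOH.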

How the data were processed

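RNA was hybridised to 24 arrays (Affymetrix HG-U133 Plus 2.0), 12 per cell line. The deposited values are linear intensities per probe set; for their summarisation, scaling and software, the sources used here name nothing, which limits every level and the share of genes rising. Groups come from the titles (1 label field of the shControl LNCaP samples names siControl instead). Of 54675 probe sets 41097 name 1 gene in the platform annotation and 1801 name several, which were left out; no 2 columns were identical.

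Intensities were analysed as log2(intensity + 16) with limma 3.58.1 (lmFit and eBayes, R 4.3.3), in 1 fit per line over its 4 groups and in 1 fit of 24 arrays for differences between lines. Benjamini-Hochberg adjustment ran over all genes passing the filter (above the array median on 3 or more of 12 arrays), and adjusted p under 0.05 was called. The scripts were tested on simulated data. Members and lists were chosen with earlier results of these data known. Named were members called at least once, the brightest of each role, members whose arrays in a group spanned over 1 log2 unit and, in other lists, up to 2 rising and 2 falling genes per comparison with the smallest adjusted p. STAT2 was not analysed here. Promoters come from RefSeq on GRCh38.p14. Alternatives were averaged probe sets, a filter raised to the 60th percentile, no filter, quantile normalization, median centring, an offset of 1, array weights, the replicate letter as a block, the GAPDH ratio as a covariate, the compared groups alone, and leaving out each array.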

Additional observations from a re-analysis of the deposited data

Results flagged for a closer look

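Responses that differed between the lines are given here as the LNCaP change minus the VCaP change (log2, limma's fit of all 24 arrays, adjusted p under 0.05); reagent, target and line differ together and cannot be told apart. For DHT in control cells the difference was 0.85 for HERC5, 0.47 for HERC6 and 0.44 for SAMD9L. It was -1.11 for CMPK2, -0.89 for IFIH1, -0.76 for IRF1, -0.76 for CXCL10, -0.74 for OASL, -0.68 for IFI35, -0.65 for IRF7, -0.61 for ISG20 and -0.54 for IFIT5. In LNCaP CXCL10 lay above the array median on no shControl array and IRF1 on EtOH arrays only, so their differences give no support. SAMD9L had 0.21 ± 0.10 in LNCaP shControl and -0.22 ± 0.11 in VCaP siControl cells, neither of which passed on its own. OASL, SAMD9L and IRF1 were lost without any of 7, 9 and 5 arrays (adjusted p up to 0.0940, 0.119 and 0.0743), and with averaged probe sets IFIH1 was -0.29 (adjusted p = 0.0698) and HERC6 0.12 (adjusted p = 0.743). For knockdown with EtOH the difference was -0.74 for GBP3, -0.60 for IFI35 and 0.28 for TRIM14, and with DHT it was 0.86 for CMPK2 and 0.33 for TRIM14. The share of members passing was 36.4% for DHT in control cells, 9.09% for knockdown with EtOH and 6.06% for knockdown with DHT. Among all genes it was 31.9%, 9.56% and 7.5%. With averaged probe sets the TRIM14 differences were 0.02 with EtOH (adjusted p = 0.945) and 0.30 with DHT (adjusted p = 0.0898), and leaving out any of 9 arrays with EtOH or either of 2 with DHT ended the call (up to 0.106 and 0.0632).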

How the results depend on the processing

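No call changed direction under any alternative. Of 122 counts of called members under settings that keep all arrays, 110 lay within 1.5 times the reported count. The 110 include 9 counts for each of the 2 interactions, where a reported 0 stayed 0. The count for siERG with EtOH, reported as 4, was 2 without the intensity filter, 2 in the fit of the compared groups only and 0 with the GAPDH ratio as a covariate. The count for siERG with DHT, reported as 3, was 5 with array weights and 0 with the GAPDH ratio, and that for DHT in siERG cells, reported as 9, was 3 with the GAPDH ratio. For shETV1 with EtOH, reported as 6, it was 2 without the filter, 3 in the compared groups only and 1 with the GAPDH ratio, and for shETV1 with DHT, reported as 5, it was 3 without the filter and 3 in the compared groups only. Leaving out single arrays gave 1 to 5 members for siERG with EtOH, 2 to 4 for siERG with DHT, 7 to 11 for DHT in siERG and 6 to 10 in siControl cells, 2 to 6 for shETV1 with EtOH, 2 to 5 for shETV1 with DHT, 15 to 18 for DHT in shETV1 and 15 to 17 in shControl cells, 0 for both interactions, and 9 to 14, 2 to 4 and 1 to 3 for the line differences in DHT response, knockdown with EtOH and knockdown with DHT. Whether the replicate letters pair the arrays was not settled. Over all genes, 2 of 18 same-letter pairs in VCaP and 1 of 18 in LNCaP correlated above 0.1. Over the members, same-letter pairs in VCaP ran from -0.57 to 0.81, and pairs of different letters were not compared. With the replicate block the count for siERG with EtOH was 2, and it was within 1.5 times the reported count elsewhere. Centring moved the share of rising genes among all calls to 24.9% from 47.8% for siERG with EtOH, to 39.3% from 29.2% for shETV1 with EtOH, to 36.7% from 51.7% for shETV1 with DHT and to 72.0% from 43.5% for the line difference in knockdown with EtOH. The 3 arrays per group, 1 reagent per target and signals near the array median limit the dim members, and the cause of each change was not tested.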

Other observations

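Genes outside the list followed the same VCaP arrays. Of 26 further interferon-induced genes tested in VCaP 12 correlated above 0.7 with the mean deviation of the members over the 12 arrays (median 0.66), against 1 of 25 in LNCaP (median 0.07). The closest in VCaP were PLSCR1, a scramblase induced by interferon (0.98), SP110, a nuclear body protein (0.95), UBE2L6, the conjugating enzyme for ISG15 (0.87), and IFITM3, which blocks viral entry (0.87). RIGI, the sensor of short double-stranded RNA, also followed (0.92). Of 10 receptor and JAK-STAT genes, 8 negative regulators, 8 NF-kB targets and 2 interferon genes tested in VCaP, 0 were above 0.7. These correlations describe 12 arrays that share their scaling.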
